A study of Mus musculus with 9 samples.

Results

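The TAM receptors *Tyro3*, *Axl* and *Mertk* and the proteins that link them, or other receptors, to dying cells were examined in mouse brain after an intrastriatal injection of lipopolysaccharide (LPS), a component of the bacterial cell wall that is sensed by Toll-like receptor 4. The genes were chosen by name. They are the 3 receptors, their ligands *Gas6* and *Pros1*, the bridging protein *Mfge8* and the engulfment adaptor *Elmo1*, 7 genes in all. A probe set assigned to that gene alone was present for 6 of the 7, among 17097 genes represented on the array. *Axl* had none in the annotation used and was not analysed here. Adult male C57Bl/6J mice of 10 to 12 weeks received LPS or phosphate-buffered saline (PBS) into the striatum, and tissue around the injection site of the ipsilateral hemisphere was taken after saline perfusion. The 3 groups were PBS at 4 d, LPS at 1 d and LPS at 4 d. All groups thus shared the surgery, and the strain carried no engineered allele. Each group had 3 arrays, and each array held RNA pooled from 3 mice, so that errors and p-values describe the spread between pools. No PBS array at 1 d was part of the data, and the day after surgery cannot be told apart from LPS in the comparison of LPS at 1 d with PBS.

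Dying cells expose phosphatidylserine, a lipid otherwise kept on the inner side of the plasma membrane, and phagocytes recognise it directly or through soluble bridging proteins. The vitamin K-dependent proteins Gas6 and protein S (encoded by *Pros1*) bind the lipid at one end and the extracellular part of TAM receptor tyrosine kinases at the other. Gas6 binds all TAM receptors, and protein S binds Tyro3 and Mertk. Signalling from these receptors promotes uptake of the dying cell and damps Toll-like receptor and cytokine signalling, in part together with the type I interferon receptor. Mfge8 (milk fat globule-EGF factor 8) bridges the same lipid to αv integrins, and Elmo1 acts with Dock proteins inside the phagocyte to activate Rac and reshape actin. In brain, Mertk is known from microglia and astrocytes, Tyro3 from neurons, and Mfge8 mainly from astrocytes.

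The arrays were alike in overall level. Their median log2 level lay between 4.32 and 4.37, arrays of one group correlated at 0.992 to 0.994 over all probe sets, and arrays of different groups at 0.981 to 0.990. The tissue carried the markers of brain that its label names, such as the neuron marker *Snap25* (11.7 in PBS), and the summed linear level of the 5 neuron markers was 12490 to 12911 in PBS, 12323 to 12406 at 1 d and 11145 to 11893 at 4 d. A gene was called changed when limma's Benjamini-Hochberg adjusted p over all 45037 probe sets was under 0.05 and the fold change was at least 1.5. Levels are log2 values normalised by robust multi-array averaging (RMA), in which a step of 1 is a doubling, and levels of different probe sets are not set against each other. The tissue holds many cell types, and fewer cells of a type cannot be told apart from less RNA per cell.

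*Pros1* rose and *Mfge8* fell after LPS, while the receptors *Mertk* and *Tyro3*, the ligand *Gas6* and the adaptor *Elmo1* did not pass the test. At 1 d, 1 of the 6 measured genes was called higher (*Pros1*) and 1 lower (*Mfge8*), beside 3.86% of all genes called higher and 0.532% called lower. At 4 d, 1 of 6 was called higher (*Pros1*) and 0 lower, beside 4.21% and 0.205% of all genes. Between 1 d and 4 d after LPS, 0 of 6 were called by limma, beside 1.84% of all genes called higher and 1.37% lower at 4 d, and 2 of the 6 had an unadjusted p under 0.05. The median difference of the 6 genes was -0.05 for 1 d and -0.03 for 4 d against PBS and 0.18 for 4 d against 1 d, where that of all genes was -0.03, -0.02 and 0.00 on the log2 scale. Across the 3 groups together, limma's F-test passed for 2 of the 6, *Pros1* (adjusted p = 0.000691) and *Mfge8* (adjusted p = 0.00186), beside 7.67% of all genes. Both comparisons with PBS use the same PBS arrays and are not independent.

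**Figure D1:**
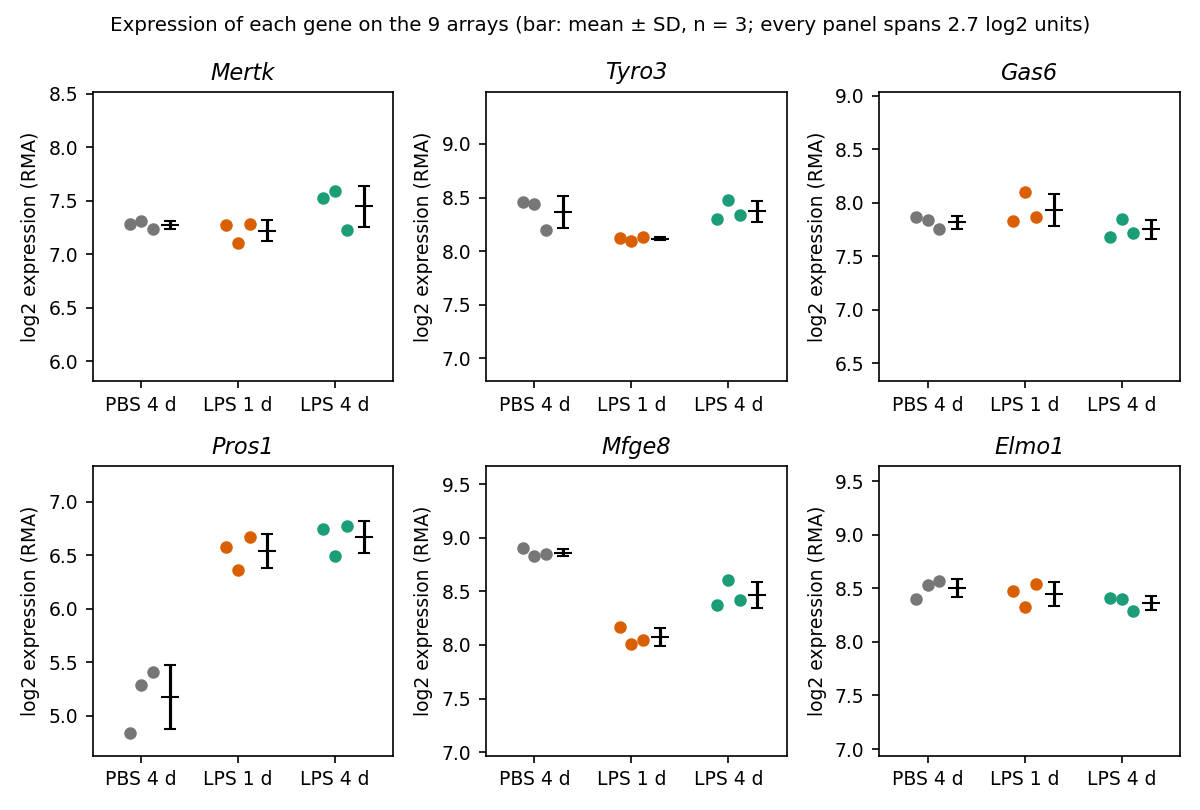
Log2 expression (RMA, y axis) of the 6 measured genes on each array, by group (x axis), with the mean ± SD of the 3 arrays as a bar beside the points. The *Pros1* arrays after LPS (6.36 to 6.77) all lie above the PBS arrays (4.84 to 5.41), and the *Mfge8* groups do not overlap, while the LPS points of *Mertk*, *Gas6* and *Elmo1* at 1 d overlap those of PBS.

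The stretches upstream of *Pros1* and *Mfge8*, the members called changed, are shown because proteins that set a gene's transcription often bind there. Each runs 5′ to 3′ on the strand of the gene over the 250 bases before the RefSeq start in GRCm38.p6. They were searched on both strands for TTCNNNGAA, a core that STAT factors bind, and GAAANNGAA, a core of interferon response elements, and capitals mark a match.
Pros1, chr16:62854057-62854306 (plus strand): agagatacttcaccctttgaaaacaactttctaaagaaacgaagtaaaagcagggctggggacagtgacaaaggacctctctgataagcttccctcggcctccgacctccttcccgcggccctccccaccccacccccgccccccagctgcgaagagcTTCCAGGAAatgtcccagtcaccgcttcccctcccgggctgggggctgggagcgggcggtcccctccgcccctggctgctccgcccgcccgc
Mfge8, chr7:79149061-79149310 (minus strand): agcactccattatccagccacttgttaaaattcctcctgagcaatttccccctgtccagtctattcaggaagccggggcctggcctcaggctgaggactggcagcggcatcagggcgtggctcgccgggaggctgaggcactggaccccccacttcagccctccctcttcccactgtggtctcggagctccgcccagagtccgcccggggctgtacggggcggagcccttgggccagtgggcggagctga
The *Pros1* stretch holds 1 match to the STAT core, beginning 92 bases before the start, and no match to the interferon core. The *Mfge8* stretch has neither. Among the members not called, *Elmo1* has a stretch with 2 matches to the STAT core and 1 to the interferon core, and another with neither. The stretches of *Tyro3*, *Mertk* and *Gas6* hold neither core. A match thus also occurs in a member that was not called. Of 32851 upstream stretches of the same length in the same table, 7.02% hold the STAT core and 7.13% the interferon core. The GC share is 64.4% for *Pros1* and 65.2% for *Mfge8*, and a match of letters is a description, not a binding site.

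*Tyro3*, the receptor of the family best known from neurons, was measured by probe set 1425248_PM_a_at at 8.46, 8.44 and 8.19 in PBS, 8.12, 8.10 and 8.13 at 1 d after LPS and 8.30, 8.48 and 8.34 at 4 d. Every array at 1 d was below every PBS array and every array at 4 d. The group means were 8.37 ± 0.15, 8.12 ± 0.02 and 8.37 ± 0.09 (SD, n = 3 each). The difference of -0.25 at 1 d (SE 0.09, 95% interval -0.46 to -0.03) did not pass adjustment (adjusted p = 0.239), nor did the difference of 0.25 from 1 d to 4 d (0.04 to 0.47, adjusted p = 0.284). At 4 d the level lay 0.01 from PBS, with an interval of -0.21 to 0.22. A second *Tyro3* probe set, 1425249_PM_a_at, differed by -0.29 at 1 d (adjusted p = 0.307) and by -0.09 at 4 d (adjusted p = 0.771), with overlapping groups at both times.

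*Mertk*, the TAM receptor with the best known part in clearance of apoptotic cells, was measured by probe set 1422869_PM_at. Its levels were 7.28, 7.31 and 7.24 in PBS, 7.27, 7.11 and 7.28 at 1 d and 7.52, 7.59 and 7.23 at 4 d. The arrays at 1 d fell within or just below the PBS range, and at 4 d 2 arrays lay above it and the other below it. The difference from PBS was -0.05 at 1 d (SE 0.11, interval -0.30 to 0.19, adjusted p = 0.859) and 0.17 at 4 d (-0.07 to 0.41, adjusted p = 0.473). From 1 d to 4 d it was 0.23 (-0.02 to 0.47, adjusted p = 0.411). A difference of 1.5-fold, 0.58 on the log2 scale, lies outside each of these intervals and outside those of *Tyro3*.

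*Mertk* and *Tyro3* were also set against each other within each array. The change of *Mertk* exceeded that of *Tyro3* by 0.19 at 1 d (SE 0.08, exact permutation p = 0.2) and by 0.17 at 4 d (exact permutation p = 0.2), and the difference between the 2 times was -0.03 (exact permutation p = 0.8). These tests were two-sided, 6 were run over both pairs of genes and 3 comparisons, and 3 arrays against 3 cannot give a p below 0.1.

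*Pros1* encodes protein S, a ligand of Tyro3 and Mertk that is also an anticoagulant cofactor in plasma, and it was the single member called higher after LPS. Its probe set 1426246_PM_at read 4.84, 5.29 and 5.41 in PBS, 6.58, 6.36 and 6.67 at 1 d, and 6.74, 6.50 and 6.77 at 4 d. All 6 LPS arrays were above all 3 PBS arrays, and the LPS times overlapped each other. From 5.18 ± 0.30 in PBS the mean went to 6.54 ± 0.16 at 1 d and 6.67 ± 0.15 at 4 d (SD, n = 3 each).

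The *Pros1* rise was 1.36 on the log2 scale at 1 d (SE 0.16, interval 1.01 to 1.71), a fold change of 2.57 (limma adjusted p = 0.00103). At 4 d the rise was 1.49 (interval 1.14 to 1.84), a fold change of 2.81 (limma adjusted p = 0.000661). From 1 d to 4 d *Pros1* differed by 0.13, less than the spread between pools allows to be told from 0 (interval -0.22 to 0.48, adjusted p = 0.791). In order of size, 352 genes had a larger rise at 1 d and 284 at 4 d. Replicate 1 was the lowest PBS array, and the rise without it was 1.19 at 1 d and 1.32 at 4 d.

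*Gas6*, the ligand shared by all TAM receptors, was not called in any comparison. Its probe set 1417399_PM_at read 7.86, 7.83 and 7.75 in PBS, 7.83, 8.10 and 7.87 at 1 d, and 7.68, 7.85 and 7.72 at 4 d. The 3 groups overlapped, with 1 array at 1 d standing above all others. The difference from PBS was 0.12 at 1 d (SE 0.09, interval -0.10 to 0.33, adjusted p = 0.619) and -0.07 at 4 d (-0.28 to 0.15, adjusted p = 0.78). From 1 d to 4 d it was -0.18 (-0.40 to 0.03, adjusted p = 0.467).

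Within arrays, the change of *Gas6* was below that of *Pros1*, by a log2 difference of -1.24 at 1 d (SE 0.26) and -1.55 at 4 d (SE 0.24). Each reached the smallest p that the exact permutation test allows here, 0.1, with an adjusted p of 0.3 over the 6 tests. Between the 2 times the pair differed by -0.31 (exact permutation p = 0.3). A second *Gas6* probe set, 1459585_PM_at, lay about the level of the nonspecific control probes (3.49) on every array, between 2.97 and 3.70, and gives no level.

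*Mfge8*, which links phosphatidylserine to αv integrins, was the single member called lower. Probe set 1420911_PM_a_at read 8.90, 8.83 and 8.85 in PBS, 8.17, 8.01 and 8.05 at 1 d, and 8.37, 8.60 and 8.42 at 4 d. The 3 groups did not overlap: PBS was highest, LPS at 4 d lay between, and LPS at 1 d was lowest. The means were 8.86 ± 0.04, 8.46 ± 0.12 and 8.07 ± 0.08 in that order (SD, n = 3 each).

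At 1 d *Mfge8* fell by 0.79 on the log2 scale (SE 0.09, interval -0.98 to -0.59), a level 1.73-fold lower than in PBS (limma adjusted p = 0.000829). A larger fall was found for 65 genes. At 4 d the difference was -0.40 (interval -0.59 to -0.20), 1.32-fold lower with a limma adjusted p of 0.0392, which passes the p threshold and misses the fold threshold. This p depended on single arrays: it was 0.121, 0.103 and 0.11 without PBS replicate 1, 2 or 3, 0.128 and 0.114 without LPS 4 d replicate 1 or 3, and 0.0587 and 0.0658 without LPS 1 d replicate 2 or 3. From 1 d to 4 d the level differed by 0.39 (interval 0.19 to 0.59, adjusted p = 0.0597), and all arrays at 4 d were above all at 1 d.

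*Elmo1*, which carries the signal from engulfment receptors to Rac, was measured by probe set 1424523_PM_at at 8.40, 8.53 and 8.57 in PBS, 8.48, 8.32 and 8.54 at 1 d, and 8.41, 8.40 and 8.29 at 4 d. The groups overlapped at both times. The difference from PBS was -0.05 at 1 d (SE 0.09, interval -0.26 to 0.15, adjusted p = 0.824) and -0.14 at 4 d (-0.34 to 0.06, adjusted p = 0.49). A second, dimmer probe set, 1450208_PM_a_at, differed by 0.07 at 1 d and by -0.39 at 4 d (adjusted p = 0.242). The probe sets thus gave opposite signs at 1 d and the same sign at 4 d, none past the test.

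**Figure D2:**
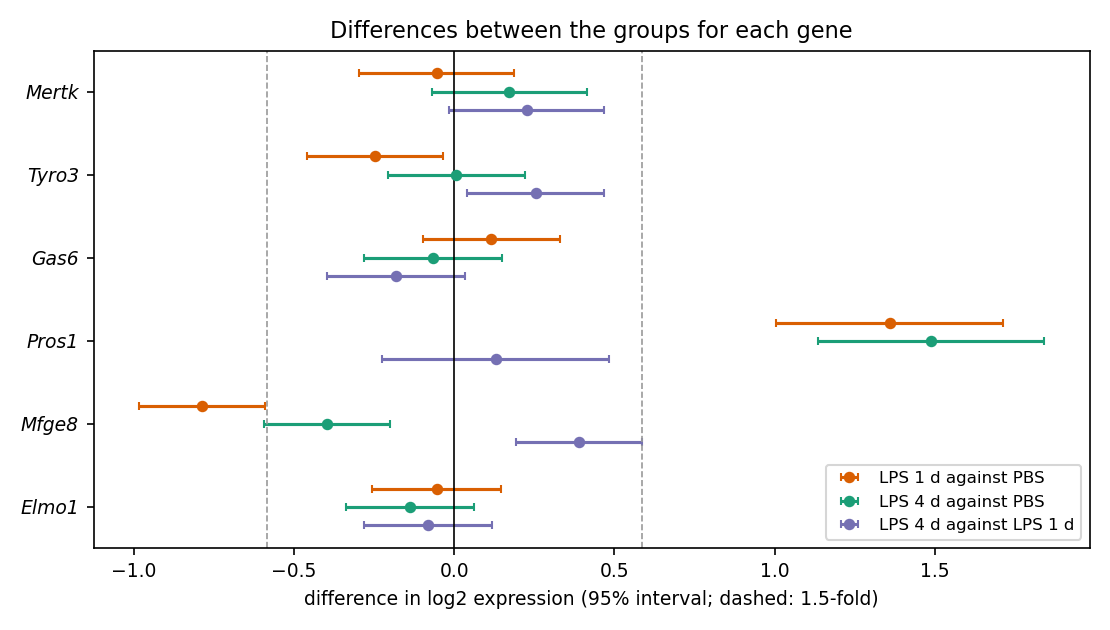
Difference in log2 expression (x axis) for each measured gene (y axis) in the 3 comparisons, as points with 95% intervals from limma, 3 arrays per group. The *Pros1* points at 1.36 and 1.49 and the *Mfge8* point at -0.79 lie beyond the dashed lines that mark a 1.5-fold change, and every point of the other 4 genes lies between the lines.

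Other genes of apoptotic cell clearance and of the interferon arm were taken from lists fixed by name, with earlier results of these data known. In these lists 64 of 74 genes were measured and the others were not analysed here. At 1 d, 15 of the 64 (23.4%) were called higher and 0 lower, beside 3.86% and 0.532% of all genes. At 4 d, 15 (23.4%) were called higher and 0 lower, beside 4.21% and 0.205% of all genes. The median difference over the 64 was 0.08 at 1 d and 0.12 at 4 d, where that of all genes was -0.03 and -0.02. From 1 d to 4 d, 7 (10.9%) were called higher and 4 (6.25%) lower, beside 1.84% and 1.37% of all genes. The same shares of all genes apply to each list and marker count below.

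The list of 16 other phosphatidylserine receptors includes integrin chains, which are linked to the lipid by Mfge8. All 16 genes were measured, and 5 were at or below the nonspecific control level in every group. Of the 16, 2 rose at 1 d and 3 at 4 d. The scavenger receptor gene *Stab1* rose by 1.05 at 1 d (SE 0.16, adjusted p = 0.00538) and by 2.76 at 4 d (adjusted p = 0.000019). *Cd300lf*, of the CD300 family of lipid-binding receptors, was at the control level in PBS, and its level at 1 d was at least 3.27-fold higher (5.20 ± 0.60 against a measured 2.73 ± 0.15 in PBS, limma adjusted p = 0.00138). Its relative *Cd300a* was called at 4 d (1.39, adjusted p = 0.00691) and not at 1 d (0.64, adjusted p = 0.177), and its 4 d call was lost with ordinary tests, in which the spread of each gene is not moderated across genes, and with the mean of its probe sets.

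The integrin chain *Itgb5*, part of the αvβ5 integrin that Mfge8 binds, differed by -0.31 at 1 d (adjusted p = 0.374) and rose by 1.12 at 4 d (adjusted p = 0.00291). Its αv partner *Itgav* differed by 0.09 and 0.05, and *Itgb3* by -0.02 and -0.27, none of them called. *Itgb3* lay below the control level in PBS (3.33), at 1 d (3.30) and at 4 d (3.06), so its differences carry little information. The phosphatidylserine receptor gene *Adgrb1* and the astrocyte engulfment receptor gene *Megf10* were not called either, with differences of -0.21 and -0.42 at 1 d.

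Of 8 measured genes for other bridging and opsonising proteins, 4 rose at 1 d and 4 at 4 d. The complement C1q chains, which tag dying cells and debris, rose at 1 d by 0.81 (*C1qa*), 0.94 (*C1qb*) and 0.64 (*C1qc*) and at 4 d by 2.15, 2.27 and 2.25. All C1q chains were higher at 4 d than at 1 d by the direct test. *Anxa1*, encoding a phosphatidylserine-binding protein with anti-inflammatory actions, rose by 1.501 at 1 d (adjusted p = 0.00215) and 1.14 at 4 d (adjusted p = 0.0114). *Edil3*, the gene most related to *Mfge8* in this list, differed by 0.06 and 0.12 and was not called. The call of *C1qc* at 1 d was lost without PBS replicate 3 or LPS 1 d replicate 3, and that of *Anxa1* at 4 d without PBS replicate 1 and with ordinary tests.

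Of 11 measured genes downstream of the receptors, 1 rose at 1 d and 2 at 4 d. *Dock2*, encoding a Rac exchange factor and partner of Elmo1, rose by 1.05 (adjusted p = 0.00109) and 2.30 (adjusted p = 0.000012), measured by a probe set of a kind that can be shared by related transcripts. *Rhog*, a small GTPase that recruits Elmo proteins, differed by 0.47 at 1 d (adjusted p = 0.132) and rose by 0.95 at 4 d (adjusted p = 0.00602). *Dock1*, the broadly expressed relative of *Dock2*, differed by 0.22 and 0.05, and *Rac1* by -0.00 and 0.05, none of them called.

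Among 10 measured genes for lipid exposure and find-me signals, the nucleotide receptor gene *P2ry6*, which promotes microglial phagocytosis, rose by 1.48 at 1 d (adjusted p = 0.00117) and 2.37 at 4 d (adjusted p = 0.000082). The scramblase gene *Ano6* rose at 1 d by 0.66 (adjusted p = 0.0188) and differed by 0.34 at 4 d. The *Ano6* call was lost without PBS replicate 1 or 2, without LPS 1 d replicate 2 or 3, with ordinary tests and with the compared groups fitted alone. Of 5 measured genes for receptor shedding and ligand carboxylation, *Adam17*, encoding a protease that sheds Mertk, rose by 0.76 (adjusted p = 0.00948) and 1.28 (adjusted p = 0.000495). The 5 measured nuclear receptors linked to clearance were not called and differed from PBS by between -0.10 (*Ppard* at 4 d) and 0.32 (*Nr1h3* at 4 d).

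TAM signalling is known to act with the type I interferon receptor and to induce suppressors of cytokine signalling. Of 9 measured genes of that arm, 5 were called higher at 1 d and 4 at 4 d, and 4 were lower at 4 d than at 1 d. *Socs3*, an inhibitor of STAT3 signalling, rose by 3.91 at 1 d (adjusted p = 0.000008) and 2.04 at 4 d (adjusted p = 0.000325). *Usp18*, a brake on interferon receptor signalling, was at the control level in PBS and was at least 11.0-fold higher at 1 d (adjusted p = 0.000019) and at least 1.96-fold higher at 4 d (adjusted p = 0.00966), a 4 d call that was lost with ordinary tests. *Irf9*, a subunit of the interferon-activated transcription complex, rose by 1.96 and 0.86, and *Stat2*, another subunit, was called at 1 d (1.41) and not at 4 d (0.44). The receptor chain gene *Ifnar2* rose by 0.63 and 0.73, while *Ifnar1* differed by 0.09 and 0.43 and *Socs1* by 0.51 and 0.13, not called. *Socs1* lay below the control level in PBS (2.74), at 1 d (3.25) and at 4 d (2.87), so its differences carry little information.

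**Figure D3:**
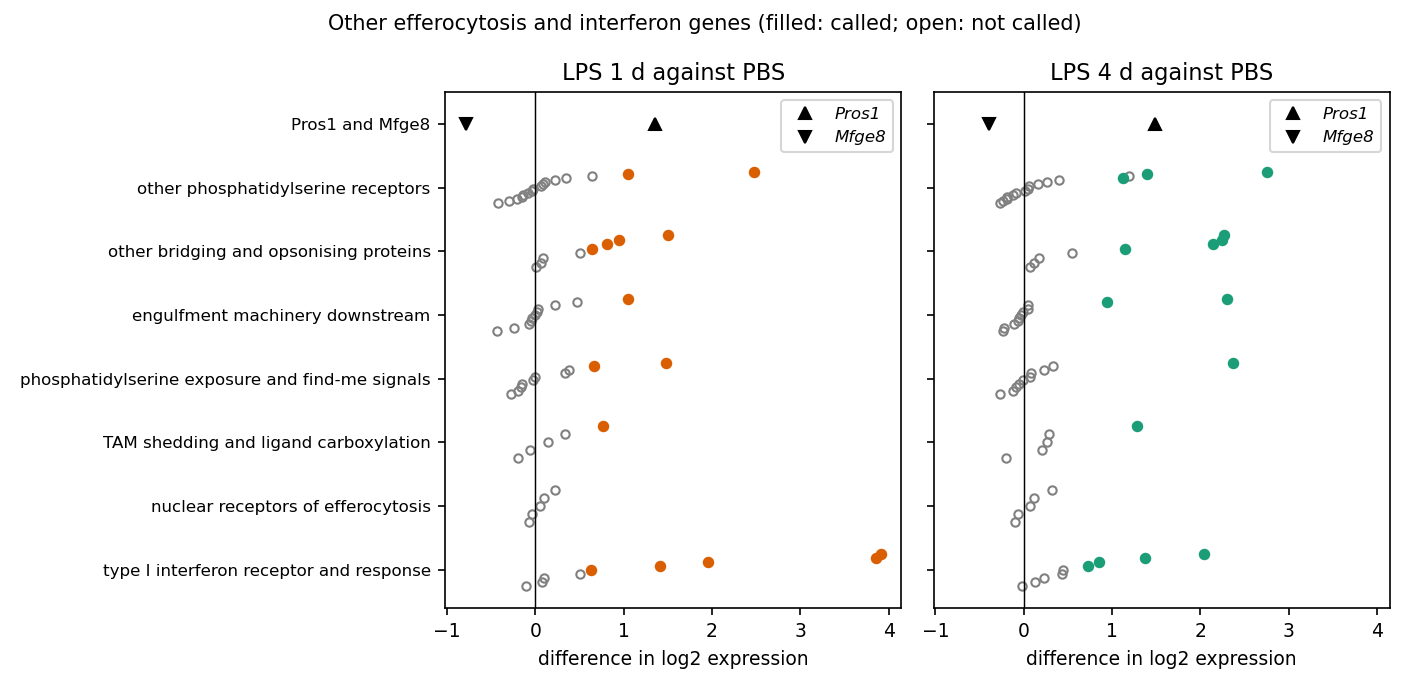
Difference in log2 expression from PBS (x axis) at 1 d (left) and 4 d (right) after LPS for each measured gene of the lists (y axis, 1 point per gene), filled where called, with *Pros1* and *Mfge8* as triangles in the top line. Of the 64 list genes, 15 are filled at 1 d and 15 at 4 d, all to the right of 0. Over all genes, 3.86% were called higher at 1 d and 4.21% at 4 d. The only member called to the left of 0 is *Mfge8* at 1 d (-0.79).

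Most markers of recruited monocytes and macrophages were higher than in PBS at both times. Of 7 measured, 5 rose at 1 d and 5 at 4 d, among them *F13a1* (1.75 and 2.66) and *Plac8*. In PBS, *Plac8* was below the control level. It rose by at least 3.32 on the log2 scale at 1 d and at least 0.95 at 4 d. *Ccr2* (0.17 and 0.42) and *Vcan* (0.25 and 0.34) were not called at either time. The level of *Ccr2* was below the control level in PBS (3.16) and at 1 d (3.33) and near it at 4 d (3.58), so its differences carry little information. From 1 d to 4 d, 1 marker was called higher (*Ms4a7*, 4.36) and 2 lower (*Plac8*, -2.37, and *Chil3*, -3.09). The summed linear level of the 7 markers was 234 to 278 in PBS, 770 to 794 at 1 d and 796 to 1091 at 4 d, without overlap between PBS and LPS. Neutrophil markers were higher mainly at 1 d: of 8 measured, 5 rose at 1 d, 0 were called at 4 d (*S100a8* at 2.50, adjusted p = 0.0628) and 3 were lower at 4 d than at 1 d. Their sum went from 73.4 to 154 in PBS to 1517 to 4174 at 1 d and 223 to 429 at 4 d. The granule genes *Ngp* (3.62 to 4.05 over the group means), *Camp* (2.84 to 2.99) and *Ltf* (3.41 to 3.68) lay below or near the control level of 3.49, so their differences carry little information. Of 7 endothelial markers, *Cdh5* (0.85 and 0.62) and *Esam* (0.59 and 0.75) rose at both times and *Cldn5* at 4 d (0.86). *Slco1c1* fell at 1 d (-0.82), and *Flt1*, *Pecam1* and *Ocln* were not called at either time. Their summed level was 837 to 878 in PBS, 692 to 774 at 1 d and 1060 to 1240 at 4 d. A linear sum gives most weight to the highest probe set, here *Slco1c1* (8.72 in PBS and 7.90 at 1 d). The median log2 difference of the 7 markers was 0.14 at 1 d and 0.62 at 4 d. The part of these cells in the *Pros1* rise was not tested.

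Cell type markers also differed between the groups, some in the direction of *Mfge8* and some in the other. Of 8 astrocyte markers, 2 rose at both times (*Gfap* by 2.83 and 2.50, *Aqp4* by 0.65 and 0.88) and 0 fell. Their summed level was 5599 to 5948 in PBS, 6280 to 6389 at 1 d and 6491 to 7077 at 4 d. That sum includes the rises of *Gfap* (5.99 in PBS, 8.82 at 1 d) and *Aqp4* (9.21 and 9.85). The other 6 markers were not called against PBS, and the median log2 difference of the 8 was 0.11 at 1 d and 0.28 at 4 d. The gap junction gene *Gja1* of this list differed by -0.36 at 1 d (adjusted p = 0.0912) and by 0.40 at 4 d (adjusted p = 0.0563), and was higher at 4 d than at 1 d by 0.76 (adjusted p = 0.00362). Microglia markers fell at 1 d in 3 of 8 (*P2ry12* at -2.14 and *Gpr34* at -2.46) and rose at 4 d in 4 of 8 (*Fcrls* by 2.23), with sums of 774 to 807, 478 to 725 and 1633 to 1862.

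Endothelial markers summed to 837 to 878 in PBS, 692 to 774 at 1 d and 1060 to 1240 at 4 d, with 2 of 7 called higher and 1 lower (*Slco1c1*, -0.82) at 1 d and 3 higher at 4 d. Oligodendrocyte markers summed to 5738 to 5868, 5006 to 5297 and 5129 to 5803, with 2 of 6 lower at 1 d (*Opalin* at -1.15 and *Cnp* at -0.63). Of 6 border macrophage markers, 1 fell at 1 d and rose at 4 d (*Mrc1*, -0.80 and 0.97). Striatal neuron markers summed to 2044 to 2790, 1801 to 2338 and 1855 to 2622, overlapping in all groups. The part of these cells in the *Mfge8* fall was not tested.

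Genes with a profile close to that of *Pros1* or *Mfge8* were found by the root mean square difference of log2 values over the 9 arrays, each gene centred on its own mean, among 11752 genes with a mean above the control level. Closest to *Pros1* were *Ugt1a9* (0.142), *Gimap4* (0.172) and *Nfe2l2* (0.181). *Ugt1a9* shares exons with the other UGT1A genes and its name is uncertain, and *Gimap4* was below the control level in PBS (2.75). *Nfe2l2*, encoding a transcription factor of the oxidative stress response, differed from PBS by 1.28 at 1 d and 1.498 at 4 d. Closest to *Mfge8* were *Nkain4* (0.106), *Insc* (0.114) and *Pls1* (0.115), with differences of -0.65, -0.57 and -0.66 at 1 d and of -0.25, -0.24 and -0.28 at 4 d. These distances describe the arrays and carry no test.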

How the data were processed

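Brain RNA from 9 pools was labelled and hybridised to Affymetrix HT MG-430 PM array plates. The deposited values are log2 expression values that the authors made by RMA in Affymetrix Expression Console (version not given in the sources used here), which quantile-normalises the arrays, so a shift common to all genes is removed. Arrays give signal and not counted reads, and their number limits the precision. No batch was named in the sources used.

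The 45037 probe sets (104 controls left out) were named from GEO's platform annotation: 28898 had 1 symbol, 551 several and 15588 none. Each gene was represented by its probe set with the highest mean. Contrasts came from limma 3.58.1 in R 4.3.3 over all 3 groups (6 residual and 3.02 prior degrees of freedom), with Benjamini-Hochberg adjustment. Thresholds (adjusted p 0.05, fold 1.5) are those of the study, which used analysis of variance. The control level, 3.49, is the highest mean of 23 nonspecific controls, and 5344 genes lay at or below it. At least N-fold values are set against that level. Summed marker levels are sums of linear values.

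The members and lists were chosen with earlier results of these data known. Named genes were all members, up to 3 genes per list and comparison with the largest called change, and the 3 nearest profiles of each member past the F-test. Other list members and markers were named after their values were seen. Of 12 planned within-array tests, 6 were run, as *Axl* was not analysed here. The code was tested on simulated data. Figures were drawn with matplotlib 3.10.9. Same-numbered arrays deviated together with correlations of -0.0346 to 0.0216, none of 9 over 0.1, so the numbers were not used as pairs.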

Additional observations from a re-analysis of the deposited data

Results flagged for a closer look

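For 11 genes of the lists, the difference from PBS at 4 d was not that at 1 d by limma's direct contrast of the LPS groups, at an adjusted p under 0.05 and at least 1.5-fold. Higher at 4 d than at 1 d were *Stab1* (1.71 on the log2 scale), *Itgb5* (1.43), *C1qa* (1.33), *C1qb* (1.33), *C1qc* (1.61), *Dock2* (1.26) and *P2ry6* (0.90). Lower at 4 d were *Socs3* (-1.87), *Usp18* (-2.49), *Irf9* (-1.10) and *Stat2* (-0.97). Over all genes, 1.84% were called higher and 1.37% lower in this contrast. The call of *P2ry6* was lost in 8 of 16 alternatives, among them the fits without each LPS 1 d replicate, without LPS 4 d replicate 1 or 3 and without PBS replicate 3, and the other 10 were called in all 16.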

How the results depend on the processing

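The F-test passed for 2 of the 6 measured members under all 15 alternatives run. The 1 d count of 2 called members became 1 with a fold threshold of 2, and the 4 d count of 1 became 2 with no fold threshold. No member was called between the LPS groups under any of 18 alternatives. With the replicate block, 2 members were called at 1 d, 1 at 4 d and 0 in the direct comparison of the LPS groups, and the block changed no member call. The 18 member differences were recomputed under 16 alternatives: 280 of 288 kept their sign and side of the threshold, and 8 changed sign, none called. For *Tyro3* at 4 d the value was -0.0070 with arrays centred on their medians, -0.042 with the mean of its probe sets and between -0.080 and 0.054 when 1 array was left out. With the mean of probe sets, *Gas6* at 1 d was -0.031 and *Elmo1* at 1 d 0.0080. Without LPS 1 d replicate 2, *Mertk* at 1 d was 0.0019 and *Elmo1* 0.0075, the highest of their leave-one-out values (lowest -0.085 and -0.10). *Pros1* ranged from 1.19 to 1.47 at 1 d (adjusted p 0.000018 to 0.0162) and 1.32 to 1.60 at 4 d, and *Mfge8* from -0.83 to -0.75 at 1 d (adjusted p 0.000002 to 0.00646). For *Mfge8* at 4 d the adjusted p ran from 0.00178 to 0.128, with 0.0979 under the replicate block, and between the times from 0.00306 to 0.194. Over the list genes, alternatives chosen after seeing the data gave 9 called higher at 1 d with a fold threshold of 2, and 12 to 16 at 4 d. Over all genes, 91 were lower at 1 d, against 51 with ordinary tests, 20 with a fold threshold of 2 and 194 with none. At 4 d, 720 were higher against 459 with a fold threshold of 2, and 35 lower against 53 with an intensity trend, 10 with ordinary tests, 22 with the 2 groups alone, 5 with a fold threshold of 2 and 94 with none, 14 without PBS replicate 3, 22 without replicate 3 of LPS 1 d and 22 without replicate 1 of LPS 4 d. Between the times, 315 were higher against 154 with ordinary tests, 165 with a fold threshold of 2 and 202 without LPS 1 d replicate 2, and 234 lower against 112, 155 and 154. The cause was not tested. Probe sets near the control level have poorly defined differences.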
